A study of Mus musculus with 24 samples.

Results

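The genes described here are 8 receptors of liver metabolism and of the response to foreign chemicals: Nr1h2, Nr1h3, Nr1i2, Nr1i3, Esrra, Esr1, Nr2f6 and Ahr. They were taken by symbol from a table of 15582 genes, and all 8 were found and expressed well enough to be tested among 6540 genes. The study sequenced RNA from the livers of male mice of the B6C3F1 hybrid strain, 4 weeks of age, after 6 days of dichloroacetic acid (DCA) in the drinking water. The control group drank water at 0 g/L DCA and the treated groups drank 1, 2 or 3.5 g/L, with 6 libraries per group and 24 in all. DCA, which forms when water is chlorinated, blocks pyruvate dehydrogenase kinase. Each extraction used roughly 20 mg of frozen tissue pooled over lobes, so every value is an average over the cells of the tissue.

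Nuclear receptors are transcription factors whose activity is set by small molecules that bind them, by coregulator proteins and by their own amount. In liver they tie the expression of enzymes and transporters to the supply of sterols, bile acids, fatty acids and foreign chemicals. LXRα (Nr1h3) and LXRβ (Nr1h2) are oxysterol receptors, PXR (Nr1i2) and CAR (Nr1i3) are receptors for foreign chemicals, and ERRα (Esrra) is an orphan receptor that works with PGC-1 coactivators on mitochondrial genes. ERα (Esr1) is the estrogen receptor, and EAR2 (Nr2f6) is an orphan receptor of the COUP-TF family. Ahr, the aryl hydrocarbon receptor, is a ligand-activated transcription factor of the bHLH-PAS family, so by structure it is not a nuclear receptor. These data measure the receptors' RNA, not their protein or activity.

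Values are RPKM (reads per kilobase of gene model and per unit of mapped reads). Estimated depth was about 21800000 to 25900000 reads per library, with relative depths of 0.951 to 1.131. The absolute figure is approximate, because it rests on annotated gene lengths and had an interquartile range over genes of 16900000 to 27800000. For 7 of the 8 receptors the whole reads behind each value could be recovered (within 0.05 reads, root mean square), and they ran from 172 (Esrra) to 1668 (Nr1h3) per library. The values of Nr1i3 did not resolve into whole reads. Hepatocyte markers were high in every group, with summed levels of 28800 to 35920 RPKM over 12 genes in controls. A tag in each title (L1, L2 or L3) has no stated meaning. Controls were all L1, the 1 g/L group had 3 libraries each of L1 and L2, the 2 g/L group was all L2 and the 3.5 g/L group was all L3. Tag and dose at 3.5 g/L cannot be told apart. Controls and the 2 g/L group share no tag either. There tag and dose are separated only through the 3 L1 and 3 L2 libraries at 1 g/L.

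In control liver the receptors were compared on the RPKM scale, which is per gene length. Nr1h3 stood highest at 20.5 ± 1.16 RPKM (SD, n = 6), above 87.9% of tested genes. It was followed by Nr1i3 at 15.5 ± 2.59, Nr1i2 at 12.2 ± 1.52 and Nr2f6 at 11.0 ± 1.29 RPKM. Nr1h2 at 5.12 ± 0.25, Ahr at 5.08 ± 1.65, Esrra at 3.35 ± 0.45 and Esr1 at 2.61 ± 0.39 RPKM made up the lower group, with Esr1 above 42.4% of tested genes. Among neighbours in this order the control libraries of Nr1h3 and Nr1i3 did not overlap, nor did those of Nr2f6 and Nr1h2. The other neighbouring pairs overlapped, so their order is within the spread between libraries. Ahr varied most among controls, with a coefficient of variation of 32.4%, and Nr1h2 least, at 4.9%.

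Over the dose range the receptors went different ways. At 3.5 g/L Esrra, Nr1i2 and Nr1i3 rose to 1.595, 1.472 and 1.479 times their control means, Nr1h2 and Nr1h3 rose by less, and Esr1 fell to 0.557 of its control mean. Nr2f6 rose at 2 g/L and was not called at 3.5 g/L, and Ahr was not called at any dose. By limma on log2(RPKM + 1), with Benjamini-Hochberg adjustment over the 6540 genes and a threshold of 0.05, 1 of 8 receptors rose at 1 g/L, where 11.4% of all genes were called and 8.35% rose. At 2 g/L 4 of 8 rose, beside 51.9% of all genes called and 41.9% rising. At 3.5 g/L 5 rose and 1 fell, beside 51.5% of all genes called, 38.6% rising and 12.9% falling. Every library lay above every control for 1 receptor in the 2 g/L group and 5 in the 3.5 g/L group, as for 20.2% and 22% of all genes. So many genes were called at the upper doses that nothing particular to the receptors is read from these counts, and each receptor is described by its own values. No label states that the libraries of a dose are separate mice, and p-values therefore reflect only how these samples vary.

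**Figure D1:**
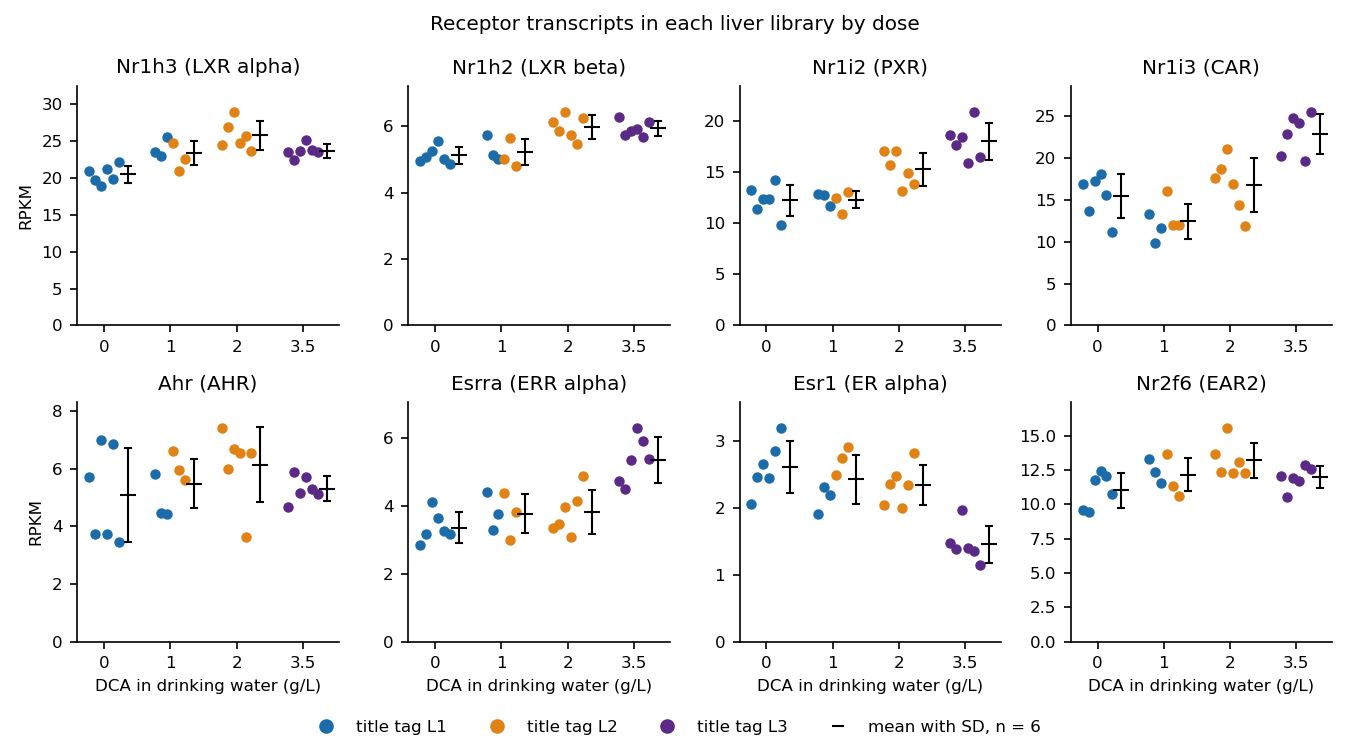
RPKM of each receptor (vertical axis, 1 panel per gene) in every library against the DCA concentration in drinking water (g/L), with the mean and SD of the 6 libraries beside the points. Esr1 is lower in all 6 libraries at 3.5 g/L than in any control, while Esrra, Nr1i2 and Nr1i3 are higher in all 6.

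Esrra lies on the minus strand of chromosome 19 (GRCm38, chr19:6910977-6921813). Its control libraries ran from 2.83 to 4.10 RPKM with a median of 3.2. The 1 g/L libraries ran from 2.98 to 4.40 (median 3.78), the 2 g/L libraries from 3.08 to 4.87 (median 3.70) and the 3.5 g/L libraries from 4.49 to 6.29 (median 5.35). The lower doses overlapped with control and the highest dose did not. The log2 difference from control was 0.13 at 1 g/L and 0.14 at 2 g/L, neither called (limma adjusted p = 0.378 and 0.22), and 0.54 (SE 0.09, adjusted p = 3.15e-05) at 3.5 g/L. The step from 2 to 3.5 g/L was itself called, at 0.41 (SE 0.09, adjusted p = 0.00671), a comparison in which 10.3% of all genes were called, 4.79% rising and 5.54% falling. At 2 g/L the 95% interval of the difference from control ran from −0.05 to 0.33. The gene Trmt112 overlaps Esrra on the opposite strand and was not analysed here.

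Esr1 lies on the plus strand of chromosome 10 (chr10:4611593-5005614). Control libraries ran from 2.06 to 3.2 RPKM (median 2.55), 1 g/L libraries from 1.91 to 2.91 (median 2.4) and 2 g/L libraries from 2.00 to 2.82 (median 2.35). The 3.5 g/L libraries ran from 1.15 to 1.97 (median 1.39). Every library at 3.5 g/L lay below every control and every 2 g/L library, a pattern that 5.86% and 2.02% of all genes showed. The log2 difference from control was −0.08 and −0.11 at the lower doses, neither called. It was −0.56 (SE 0.08, adjusted p = 6.30e-06) at 3.5 g/L. In size that was close to Nr1i3 (0.55, SE 0.12), Esrra (0.54, SE 0.09) and Nr1i2 (0.53, SE 0.08), so their order is within the standard errors. The step of Esr1 from 2 to 3.5 g/L was −0.45 (SE 0.08, adjusted p = 0.00138). Within the 1 g/L group the L1 libraries averaged 2.14 RPKM and the L2 libraries 2.71. With libraries scaled by median ratio Esr1 was called lower at 2 g/L as well (−0.23, adjusted p = 0.0169), and likewise with quantile normalization (−0.22, adjusted p = 0.0219). Among hepatocyte markers 10 of 12 fell and 1 rose at 3.5 g/L (summed level 21650 to 27130 RPKM). Of 10 tested Kupffer cell markers 9 fell (summed level 61.0 to 83.7 RPKM, against 94.2 to 136.3 in controls). Over all genes 12.9% fell at that dose. Other cell types differed: 2 of 12 endothelial, 0 of 12 stellate and mesenchymal, 1 of 5 cholangiocyte and 2 of 5 blood cell markers fell. None of the hepatocyte or Kupffer cell markers was at 0 in every library. The part of any marker list in the changes of the receptors was not tested. In bulk tissue, fewer cells of a type and less RNA per cell cannot be told apart.

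The 5′ regions of Esrra and Esr1, which moved in opposite directions at 3.5 g/L, are given for the sequence context of these 2 genes. They are RefSeq promoter windows on GRCm38.p6, from 250 bases before to 50 after a transcription start, written 5′ to 3′ on the gene's strand, with capitals marking GCGTG or its complement CACGC, the core bound by the Ahr complex. Esr1 has 2 starts in the table.
Esrra, chr19:6921759-6922058, minus strand: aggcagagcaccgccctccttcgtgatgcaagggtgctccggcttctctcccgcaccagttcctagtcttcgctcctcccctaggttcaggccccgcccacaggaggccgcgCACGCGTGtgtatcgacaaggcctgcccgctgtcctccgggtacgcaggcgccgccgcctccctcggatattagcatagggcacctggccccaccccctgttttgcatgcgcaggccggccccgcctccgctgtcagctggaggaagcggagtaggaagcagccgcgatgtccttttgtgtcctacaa
Esr1 first start, chr10:4611739-4612038, plus strand: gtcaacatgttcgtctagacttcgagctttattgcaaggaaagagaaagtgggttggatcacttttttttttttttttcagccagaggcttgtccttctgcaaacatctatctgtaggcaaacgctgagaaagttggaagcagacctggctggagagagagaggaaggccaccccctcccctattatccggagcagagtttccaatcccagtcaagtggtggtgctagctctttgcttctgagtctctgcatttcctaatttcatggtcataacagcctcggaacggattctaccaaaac
Esr1 second start, chr10:4709908-4710207, plus strand: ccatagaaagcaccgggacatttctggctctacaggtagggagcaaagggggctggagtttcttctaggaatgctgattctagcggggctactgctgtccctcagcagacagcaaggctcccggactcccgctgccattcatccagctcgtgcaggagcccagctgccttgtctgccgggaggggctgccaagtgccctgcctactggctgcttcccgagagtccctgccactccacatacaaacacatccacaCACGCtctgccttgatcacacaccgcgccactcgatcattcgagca
Esrra holds 2 overlapping matches to the core, the second Esr1 start holds 1, and the first Esr1 start none. GCGTG or its complement occurs in 32.4% of the 32851 promoter windows of the table, so a match is frequent. Neither AGGTCA, the core recognised by many nuclear receptors, nor TCAAGGTCA, the longer element of ERR proteins that contains it, was found on either strand in these windows, and they occur in 16.3% and 0.423% of all windows. GC content was 66.0% at Esrra, and 46.3% and 59.3% at the Esr1 starts.

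The ratio of Esrra to Esr1 within each library nearly cancels any library scaling. The mean log2 ratio of RPKM + 1 was 0.27 ± 0.18 (SD, n = 6) in controls and 0.47 ± 0.28, 0.52 ± 0.09 and 1.37 ± 0.23 at 1, 2 and 3.5 g/L. An exact two-sided permutation test over the 924 splits of 6 against 6 libraries gave adjusted p = 0.217, 0.0487 and 0.0195 in that order of dose over the 9 ratio comparisons made. At 3.5 g/L the raw p was 0.002165, the smallest this design can give, and the ratio was higher by 1.10. The call at 2 g/L was lost on leaving out any of 10 of the 12 libraries, with differences of 0.19 to 0.27 and adjusted p up to 0.0844.

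**Figure D2:**
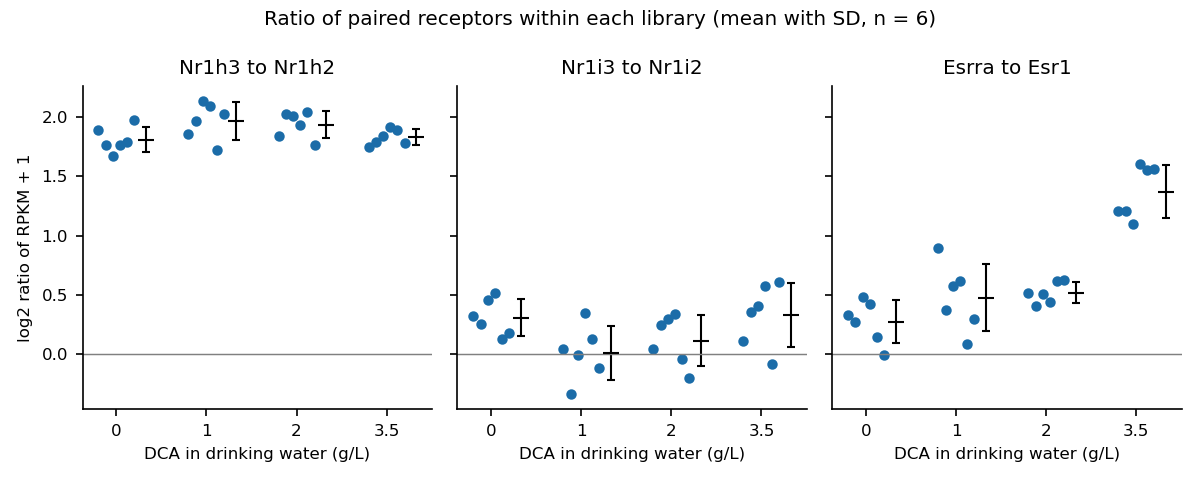
Log2 ratio of RPKM + 1 within each library (vertical axis) for Nr1h3 to Nr1h2, Nr1i3 to Nr1i2 and Esrra to Esr1, against DCA concentration (g/L), with mean and SD of 6 libraries. The Esrra to Esr1 ratio rises to 1.37 at 3.5 g/L, above every control library, while the other 2 ratios overlap with control at every dose.

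Nr1i2, the gene of PXR, lies on the minus strand of chromosome 16 (chr16:38248323-38294824). Control libraries ran from 9.81 to 14.2 RPKM (median 12.4) and 1 g/L libraries from 10.9 to 13.1 (median 12.6). The 2 g/L libraries ran from 13.2 to 17.1 (median 15.3) and the 3.5 g/L libraries from 15.9 to 20.9 (median 18.0). The 1 g/L group lay within the control range, all 2 g/L libraries lay above all 1 g/L libraries, and the 3.5 g/L group lay above all controls. The log2 difference from control was 0.01 at 1 g/L, 0.30 (SE 0.08, adjusted p = 0.00259) at 2 g/L and 0.53 (SE 0.08, adjusted p = 6.22e-06) at 3.5 g/L. With median-ratio or quantile scaling the 2 g/L value was 0.14 or 0.13 and no longer called, while the 3.5 g/L value stayed called at 0.39 or 0.35. With the title tag as a term the 2 g/L difference was 0.34 (adjusted p = 0.1004). The step from 1 to 2 g/L was 0.29 (adjusted p = 0.00754), where 28.4% of all genes were called and 22.7% rose. In that step 9.11% of all genes showed the separation seen for Nr1i2. The 3 receptors called in it, Nr1i2, Nr1i3 and Nr1h2, all rose, and none was called with median-ratio or quantile scaling. Within the L2 libraries, with 3 libraries at 1 g/L, none was called either, at differences of 0.31 for Nr1i2, 0.30 for Nr1i3 and 0.18 for Nr1h2. The fit with the tag as a term gave the same differences and called Nr1i2 (adjusted p = 0.0356) and Nr1h2 (adjusted p = 0.0291).

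Nr1i3, the gene of CAR, lies on the plus strand of chromosome 1 (chr1:171213970-171220701), opposite to Tomm40l, which was not analysed here. Control libraries ran from 11.2 to 18.1 RPKM (median 16.2), 1 g/L from 9.82 to 16.0 (median 12), 2 g/L from 11.9 to 21.1 (median 17.3) and 3.5 g/L from 19.6 to 25.6 (median 23.5). The first 3 groups overlapped one another and the 3.5 g/L libraries lay above all controls. The log2 difference was −0.29 at 1 g/L (95% interval −0.54 to −0.03, adjusted p = 0.124, so not called), 0.11 at 2 g/L and 0.55 (SE 0.12, adjusted p = 0.000708) at 3.5 g/L. Within the L1 libraries alone the 1 g/L difference was −0.38 (adjusted p = 0.217). The step from 1 to 2 g/L was called, at 0.39 (SE 0.12, adjusted p = 0.0186), and that from 2 to 3.5 g/L at 0.44 (SE 0.12, adjusted p = 0.0244). Median-ratio and quantile scaling left the 3.5 g/L rise called, at 0.40 and 0.37.

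PXR and CAR share ligands and target genes, and at 3.5 g/L the 2 genes rose by about the same amount, so their promoter windows are shown side by side. Capitals mark CACGTG, an E-box.
Nr1i2, chr16:38294775-38295074, minus strand: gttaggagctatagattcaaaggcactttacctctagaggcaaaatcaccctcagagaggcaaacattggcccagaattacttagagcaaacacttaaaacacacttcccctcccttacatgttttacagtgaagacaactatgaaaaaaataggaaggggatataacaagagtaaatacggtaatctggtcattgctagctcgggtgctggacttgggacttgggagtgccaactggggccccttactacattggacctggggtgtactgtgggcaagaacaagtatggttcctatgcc
Nr1i3, chr1:171213720-171214019, plus strand: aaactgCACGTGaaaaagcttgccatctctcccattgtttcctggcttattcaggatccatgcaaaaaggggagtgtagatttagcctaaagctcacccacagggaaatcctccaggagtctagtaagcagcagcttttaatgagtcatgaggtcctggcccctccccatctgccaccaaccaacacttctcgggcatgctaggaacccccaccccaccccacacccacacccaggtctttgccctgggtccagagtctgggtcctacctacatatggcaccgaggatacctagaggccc
Nr1i3 holds 1 E-box and Nr1i2 none, while 7.15% of all windows hold one. Neither holds AGGTCA or GCGTG on either strand. The log2 ratio of Nr1i3 to Nr1i2 was 0.31 ± 0.15 in controls and 0.007 ± 0.23, 0.11 ± 0.21 and 0.33 ± 0.27 at 1, 2 and 3.5 g/L. The exact permutation test gave adjusted p = 0.0779, 0.146 and 0.881, for differences of −0.30 (SE 0.11), −0.20 (SE 0.11) and 0.02 (SE 0.13), so no change in the balance of the 2 receptors passed the test. Within L1 the 1 g/L difference was −0.41 (exact permutation adjusted p = 0.0357 over the 3 ratios).

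The LXR genes moved less and depended on the scaling. Nr1h3 (chr2:91184061-91202834, minus strand, overlapped by the annotated genes Gm13783 and Gm23390) ran from 18.9 to 22.1 RPKM in controls (median 20.4), from 20.9 to 25.6 at 1 g/L (median 23.2), from 23.6 to 29.0 at 2 g/L (median 25.3) and from 22.4 to 25.1 at 3.5 g/L (median 23.5). The 2 g/L and 3.5 g/L groups lay above all controls, and the highest mean was at 2 g/L. The log2 difference was 0.18 (SE 0.05, adjusted p = 0.0309) at 1 g/L, 0.32 (SE 0.05, adjusted p = 4.22e-05) at 2 g/L and 0.20 (SE 0.05, adjusted p = 0.00321) at 3.5 g/L. Nr1h3 was the receptor called at 1 g/L, and that call was lost within L1 alone (0.22, adjusted p = 0.171), with the tag as a term (0.22, adjusted p = 0.0743) and with median-ratio (0.11) or quantile (0.13) scaling. At 2 g/L it stayed called under those scalings (0.15, adjusted p = 0.0261, and 0.13, adjusted p = 0.0403) and with the tag as a term (0.39, adjusted p = 0.00684). The same scalings gave 0.06 and 0.01 at 3.5 g/L, where the call was lost.

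Nr1h2 (chr7:44549616-44553951, minus strand) ran from 4.87 to 5.55 RPKM in controls (median 5.05), from 4.79 to 5.75 at 1 g/L (median 5.07), from 5.46 to 6.44 at 2 g/L (median 6.00) and from 5.67 to 6.29 at 3.5 g/L (median 5.89). The 2 upper doses reached much the same level, and only the 3.5 g/L libraries all lay above control. Differences from control were 0.02 at 1 g/L and then 0.19 (SE 0.05, adjusted p = 0.00126) at 2 g/L and 0.18 (SE 0.05, adjusted p = 0.00179) at 3.5 g/L. The median log2 difference of all tested genes was 0.05, 0.12 and 0.10 at the 3 doses as deposited. Scaled by median ratio, Nr1h2 differed by 0.04 at 2 g/L and 0.05 at 3.5 g/L, neither called, so its rise is close to the shift of all genes. With the tag as a term the 2 g/L value was 0.22 (adjusted p = 0.0572). The step from 1 to 2 g/L was 0.17 (SE 0.05, adjusted p = 0.00804). The log2 ratio of Nr1h3 to Nr1h2 was 1.81 ± 0.11 in controls and 1.97 ± 0.16, 1.94 ± 0.11 and 1.83 ± 0.07 at 1, 2 and 3.5 g/L, with exact permutation adjusted p = 0.144, 0.144 and 0.801.

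Nr2f6 (chr8:71374123-71381960, minus strand) ran from 9.48 to 12.5 RPKM in controls (median 11.3), from 10.6 to 13.7 at 1 g/L (median 12), from 12.3 to 15.6 at 2 g/L (median 12.7) and from 10.6 to 12.8 at 3.5 g/L (median 12). All groups overlapped with control. The 2 g/L difference of 0.24 (SE 0.07, adjusted p = 0.00803) was called and was lost with median-ratio (0.08) or quantile (0.06) scaling and with the tag as a term (0.31, adjusted p = 0.107). The 3.5 g/L difference was 0.11 (95% interval −0.04 to 0.27, adjusted p = 0.202). Ocel1, on the opposite strand, went from 1.57 RPKM in controls to 1.38 at 2 g/L and 1.41 at 3.5 g/L, without being called.

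Ahr (chr12:35497974-35535038, minus strand) had the widest spread among controls. Controls split into 3 libraries at 3.44, 3.73 and 3.74 RPKM and 3 at 5.72, 6.85 and 7.00. The 1 g/L libraries ran from 4.44 to 6.60 (median 5.72), the 2 g/L libraries from 3.63 to 7.41 (median 6.55) and the 3.5 g/L libraries from 4.66 to 5.89 (median 5.22), all overlapping with control. Differences were 0.12, 0.25 and 0.09 at 1, 2 and 3.5 g/L (SE 0.15 each), with 95% intervals of −0.18 to 0.43, −0.05 to 0.55 and −0.21 to 0.39. No call was made, and changes up to about these bounds were not excluded. One 2 g/L library, replicate 77, stood at 3.63 RPKM with the others at 5.98 to 7.41, and without it the 2 g/L difference was called (0.37, adjusted p = 0.0243). Controls held values as low as that library, and with the title tag as a term the 2 g/L difference was −0.0107. No rise of Ahr is therefore read from leaving out 1 library.

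**Figure D3:**
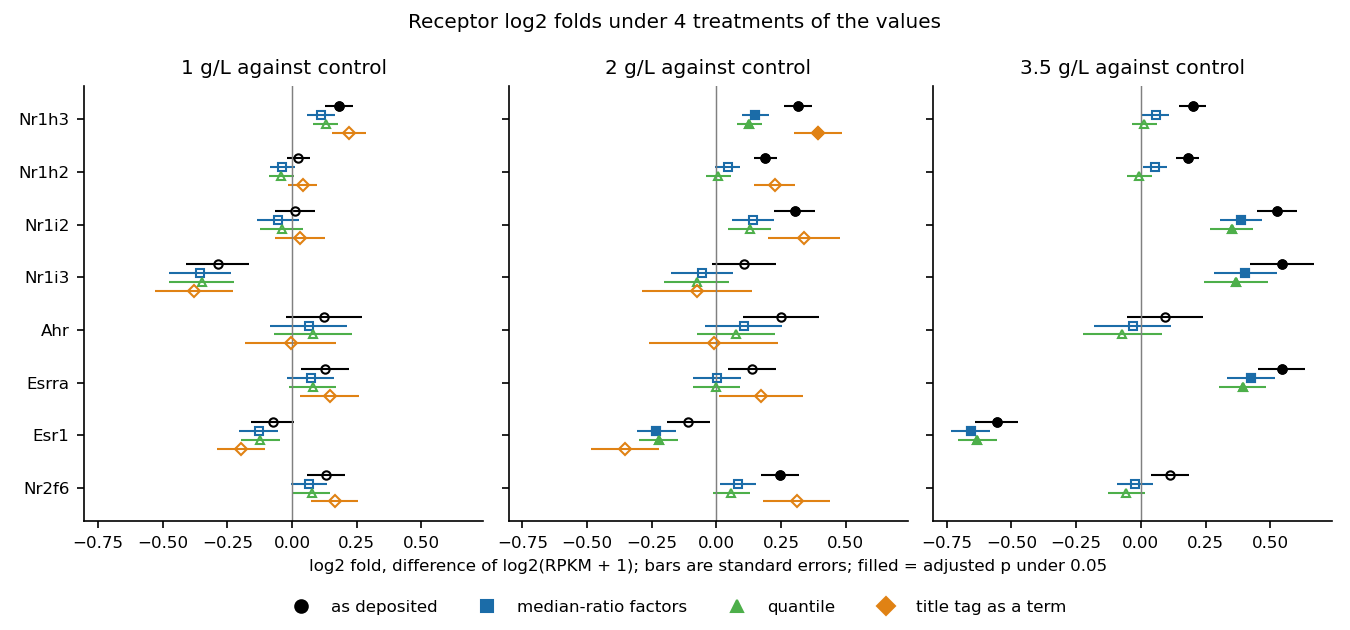
Limma log2 difference from control of each receptor on log2(RPKM + 1) at 1, 2 and 3.5 g/L DCA, as deposited, with median-ratio or quantile scaling and with the title tag as a term (not possible at 3.5 g/L); bars are standard errors and filled points have adjusted p under 0.05. At 3.5 g/L Esr1 stays below 0 and Esrra, Nr1i2 and Nr1i3 stay above 0 and filled under all 3 scalings, while Nr1h2 and Nr1h3 are filled only as deposited.

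A linear slope over dose was called for 6 receptors, 5 rising and 1 falling, where 50.6% of all genes were called, 38% rising and 12.6% falling. Slopes per g/L were 0.19 for Nr1i3, 0.16 for Nr1i2, 0.15 for Esrra, 0.06 for Nr1h2 and 0.06 for Nr1h3, and −0.16 for Esr1. Those of Nr2f6 and Ahr, at 0.03 each, were not called. With median-ratio or quantile scaling 4 slopes were called, those of Nr1i3, Nr1i2, Esrra and Esr1. With the tag as a term that of Nr1h3 was called, at 0.20 (adjusted p = 0.00778), and the median standard error of a slope went from 0.021 to 0.062. That fit takes the slope from 0 to 2 g/L only, because the highest dose has a tag of its own. Its slopes are therefore not on equal terms with those over the full dose range. The slopes of Esr1 (−0.18), Nr1i2 (0.17), Nr1h2 (0.11) and Esrra (0.09) kept their sign in that fit, and that of Nr1i3 did not (−0.04). The rise of Nr1i3 at the highest dose does not enter that slope.

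Genes under these receptors were counted from lists of textbook targets, many of which other factors also control. ERRα targets, mostly genes of fatty acid oxidation, the citric acid cycle and respiration, rose in 3 of 27 at 1 g/L, 26 of 27 at 2 g/L and 26 of 27 at 3.5 g/L, with none falling. Their median log2 difference was 0.15, 0.37 and 0.50, beside 0.05, 0.12 and 0.10 for all genes, of which 8.35%, 41.9% and 38.6% rose. With median-ratio scaling 0, 18 and 25 rose. The fit that includes the tag called 0 and 12 of them higher at 1 and 2 g/L, with a median of 0.36 at 2 g/L that was close to the 0.37 without it. The targets with the largest difference at 2 g/L were Acadm, the medium-chain acyl-CoA dehydrogenase (43.4 ± 3.23 to 101.5 ± 25.6 RPKM, 1.17), Dlst, a subunit of 2-oxoglutarate dehydrogenase (30.9 ± 2.84 to 55.5 ± 7.01 RPKM, 0.82), and Cycs, cytochrome c (17 ± 1.60 to 29.9 ± 4.08 RPKM, 0.77). At 2 g/L Esrra itself was not called, at 0.14 with a 95% interval of −0.05 to 0.33, so a rise of Esrra within that interval was not excluded. Its relation to these targets was not tested.

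PXR and CAR targets moved both ways. Of 23 tested, none was called at 1 g/L, 12 rose and 8 fell at 2 g/L, and 14 rose and 6 fell at 3.5 g/L, with medians of 0.11, 0.47 and 0.70. Of all genes 41.9% rose and 10% fell at 2 g/L, and 38.6% rose and 12.9% fell at 3.5 g/L. With the tag as a term 6 rose and 6 fell at 2 g/L, with a median of 0.61. The largest at 2 g/L were Cyp2b9, a cytochrome P450 of drug and steroid metabolism, Gsta1, a glutathione transferase, and Ephx1, the microsomal epoxide hydrolase. Cyp2b9 went from 0.70 ± 0.41 RPKM in controls to 6.73 ± 4.25 at 2 g/L and 47.4 ± 41.8 at 3.5 g/L (2.01, adjusted p = 0.000135, and 4.53). Ephx1 went from 54.2 ± 8.64 to 187.9 ± 54.8 and 228.8 ± 44.9 RPKM (1.74, adjusted p = 4.34e-08, at 2 g/L). Gsta1 went from 0.22 ± 0.13 to 4.28 ± 2.60 RPKM at 2 g/L (1.96). No control library of Gsta1 was above 0.38 RPKM, so it passed the filter of 0.5 RPKM only through dosed libraries. A gene so low in controls could enter the test only by being higher with DCA. The rise of Gsta1 and its place in the counts are therefore description only. Cyp2b10, the usual CAR target, chosen after its values were seen, stood at 0.59 ± 0.38 RPKM in controls and 0.40 ± 0.38 at 3.5 g/L and was not called. Cyp3a11, a PXR target also chosen afterwards, was 518.7 ± 160.3 RPKM in controls, 520.2 ± 117.7 at 2 g/L and 790.0 ± 102.7 at 3.5 g/L (0.66, adjusted p = 0.0201, at 3.5 g/L). Cyp2c29, chosen afterwards too, was lower, at 376.2 ± 106.4 RPKM in controls, 188.2 ± 42.0 at 2 g/L and 287.2 ± 50.8 at 3.5 g/L. Cyp2b, Cyp2c, Cyp3a and Gsta genes have close paralogs, and no source used here says how reads that fit several of them were counted, so their single values are uncertain.

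Of 19 LXR targets, 2, 10 and 13 rose at 1, 2 and 3.5 g/L, and 1, 4 and 0 fell. Over all genes the shares were 8.35%, 41.9% and 38.6% rising and 3.03%, 10% and 12.9% falling. Of LXR targets 52.6% rose and 21.1% fell at 2 g/L, and 68.4% rose and 0% fell at 3.5 g/L. The rising share at 2 g/L is not far from the background, while that at 3.5 g/L lies above it. The list was not tested as a set. The medians of the list were −0.02, 0.30 and 0.53. With median-ratio scaling 8 rose and 6 fell at 2 g/L, and 12 rose and 4 fell at 3.5 g/L. A tag term left 5 rising and 1 falling at 2 g/L, with a median of 0.35. Cyp7a1, the rate-limiting enzyme of bile acid synthesis, went from 3.23 ± 1.01 to 11.4 ± 4.94 RPKM at 2 g/L (1.5, adjusted p = 0.000484), Elovl5, a fatty acid elongase, from 77.8 ± 19.7 to 202.1 ± 36.2 (1.38), and Apoc2, the lipoprotein lipase cofactor, from 106.9 ± 16.8 to 222.4 ± 16.9 (1.06). The 3 tested Ahr targets did not move together: Cyp1a2 fell at 2 g/L from 197.2 ± 29.1 to 97.4 ± 13.8 RPKM (−1.01, adjusted p = 5.68e-08), while Nqo1 (0.83) and Lrat (0.43) rose, the latter not called with median-ratio or quantile scaling. Lrat is also on the list of stellate and mesenchymal cell markers, and which cells its rise came from was not tested.

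**Figure D4:**
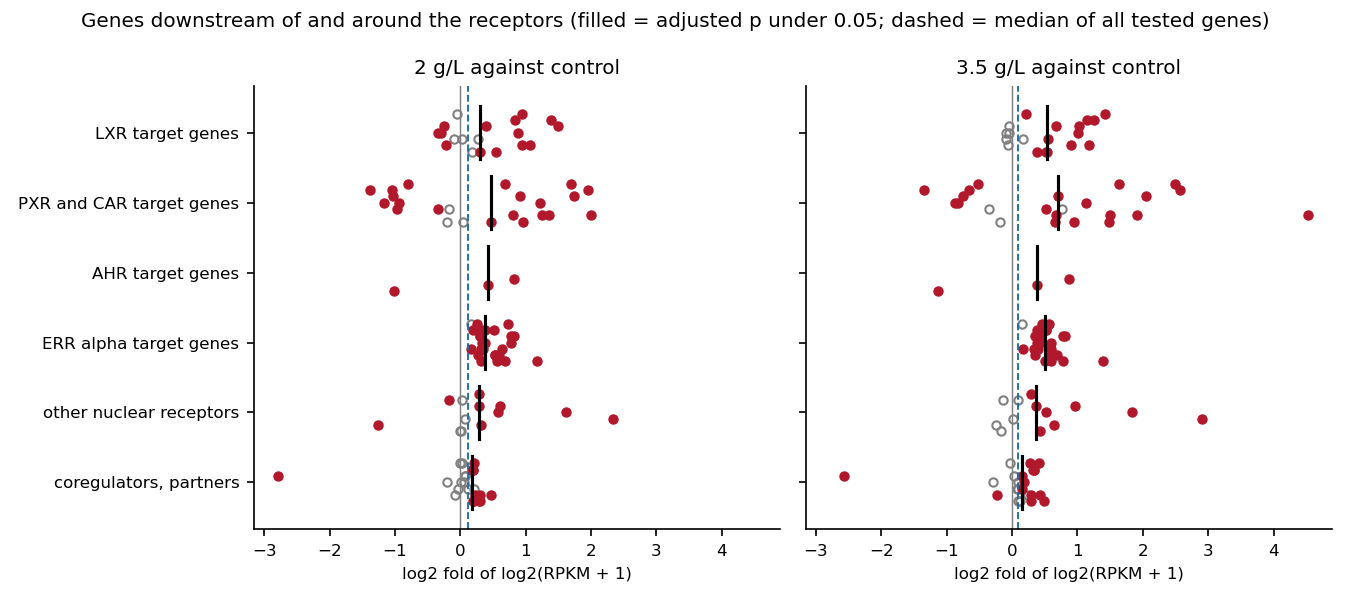
Log2 difference from control (horizontal axis, log2(RPKM + 1)) of every tested gene of 6 lists at 2 and 3.5 g/L DCA; filled points have adjusted p under 0.05, black bars are list medians and the dashed line is the median of all tested genes. ERRα targets sit above 0 with 26 of 27 filled at both doses, while PXR and CAR targets lie on both sides of 0.

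Of 13 other nuclear receptor genes tested, 4, 7 and 8 rose at 1, 2 and 3.5 g/L, while 0, 2 and 0 fell. These are shares of 30.8%, 53.8% and 61.5% rising, beside 8.35%, 41.9% and 38.6% of all genes. With median-ratio or quantile scaling 2 fell at 3.5 g/L, and with the tag in the fit 3 rose and 0 fell at 2 g/L, with a median of 0.07 in place of 0.28. The heme-binding clock repressors Nr1d1 and Nr1d2 rose most at 2 g/L, from 1.55 ± 0.39 to 12.1 ± 3.57 RPKM (2.33) and from 1.79 ± 0.26 to 7.58 ± 1.05 RPKM (1.62). Nr0b2, the corepressor SHP, fell from 16.5 ± 2.94 to 6.58 ± 2.31 RPKM at 2 g/L (−1.25, adjusted p = 2.41e-05) and stood at 13.8 ± 1.96 at 3.5 g/L. Nr1h4, the bile acid receptor FXR, and Hnf4a were chosen after their values were seen. Nr1h4 rose from 16.5 ± 3.15 to 25.5 ± 1.87 and 32.7 ± 2.57 RPKM at 2 and 3.5 g/L, and Hnf4a, also one of the hepatocyte markers, from 94.8 ± 9.36 to 128.0 ± 4.14 RPKM at 3.5 g/L. Of 23 coregulator and partner genes, 11 rose and 1 fell at 2 g/L, and with median-ratio scaling 1 rose and 4 fell. As deposited these are shares of 47.8% rising and 4.35% falling, beside 41.9% and 10% of all genes. The rising share is near that of all genes. The gene that fell most was Lpin1, a phosphatidate phosphatase that also acts as a coactivator (50.4 ± 16.9 to 6.27 ± 1.46 RPKM, −2.79), while Hsp90aa1, the chaperone that holds Ahr and CAR in the cytosol, rose by 0.47 and Nrip1, a corepressor, by 0.31, neither called with median-ratio or quantile scaling.

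The gene whose levels were most like those of each receptor was found by Pearson r of log2(RPKM + 1) over the 24 libraries among the 6540 genes, as a description. All libraries share the dose pattern, and r was computed again with each dose mean removed. For Nr1i3 it was Glt1d1 (r = 0.92, and 0.75 with dose means removed), followed by Abcc2, a bile conjugate exporter (0.90 and 0.81). Abcc2 stood at 55.7 ± 7.15 RPKM in controls and 108.3 ± 10.9 at 3.5 g/L. For Nr1i2 it was Mapre3 (0.92 and 0.61), for Esrra 0610040J01Rik (0.90 and 0.70), for Nr1h3 Edf1 (0.89 and 0.64) and for Nr1h2 Katnal1 (0.85 and 0.58). For Esr1 it was Cpb2 (0.90 and 0.70). For Nr2f6 it was Blcap (0.78 and 0.82) and for Ahr 1700049G17Rik (0.72 and 0.73).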

How the data were processed

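RNA sequencing of 24 liver samples was analysed from 1 table of RPKM values deposited by the authors. Tools named in the submitters' processing notes are CASAVA, Partek and STAR 2.4, with the build mm10, and no role is given for any of them. The annotation and any use of strand in counting are not given in the sources used here, so overlapping genes may share reads. Zeros stand as 1e-04 RPKM. The table as held stops inside the line for Olfr272. That line and 13 lines with date-like symbols were dropped, leaving 15582 genes. Genes later in the alphabet, such as Ppara and Rxra, were not analysed here.

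The test set was the 6540 genes that reached 0.5 RPKM in 6 or more libraries. With limma 3.58.1 in R 4.3.3, 1 mean per dose was fitted to log2(RPKM + 1) over 24 libraries with a trended spread, two-sided, adjusted by Benjamini-Hochberg over all tested genes. A log2 difference is on the log2(RPKM + 1) scale and understates changes of low genes. Receptor ratios were tested by exact permutation over every split of the libraries, in Python 3.11.15 with numpy 2.4.6. Alternatives were median-ratio and quantile scaling, a pseudocount of 0.1 or none, a filter of 1 RPKM or none, the title tag as a term, within-tag fits and leaving out each library. Per list, up to 3 genes with the largest difference at 2 g/L among those past the threshold were named, and per receptor the 3 genes most like it were found, of which 1 or 2 are reported here. The receptors, lists and tests were chosen with earlier results of these data known. Promoters came from RefSeq on GRCm38.p6, which held 7 of the 8 receptors, and gene positions from GENCODE on GRCm38.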

Additional observations from a re-analysis of the deposited data

How the results depend on the processing

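No paired analysis was possible because replicate numbers are not shared between the doses. Median-ratio and quantile scaling, which move the median difference of all genes to about 0, turned the sign of small differences. Under them, in that order, Nr1h2 (−0.0371 and −0.0412) and Nr1i2 (−0.0555 and −0.0396) turned negative at 1 g/L, Nr1i3 (−0.0563 and −0.0758) at 2 g/L, and Nr2f6 (−0.0232 and −0.0557) and Ahr (−0.0317 and −0.071) at 3.5 g/L. Quantile scaling also turned Esrra at 2 g/L (−0.0005) and Nr1h2 at 3.5 g/L (−0.0054). With the title tag as a term Ahr turned at 1 g/L (−0.006, as within L1) and 2 g/L (−0.0107), and Nr1i3 at 2 g/L (−0.0752). The Nr1h3 to Nr1h2 ratio at 3.5 g/L was −0.0017 with a pseudocount of 0.1 and −0.0046 with none. The cause was not tested.

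Receptors called at 1 g/L were 0 with median-ratio or quantile scaling, with the tag as a term, within L1 and with only the compared doses fitted. At 2 g/L they were 2, 2 and 1 with median-ratio, quantile and the tag term. For 2 against 1 g/L they were 0 with either scaling and 0 within L2. For the slope there were 4 with either scaling and 1 with the tag term, which takes the slope from 0 to 2 g/L only. Genes called at 1 g/L were 172 with the tag term and 50 within L1, where fewer libraries were fitted, and at 2 g/L 973 with the tag term. Rises made up 73.4%, 80.6% and 75% of calls as deposited, against 40.7%, 50.3% and 50.2% with median-ratio and 52.4%, 51% and 49.7% with quantile scaling. The Nr1i3 to Nr1i2 ratio at 1 g/L was −0.41 within L1, with 3 treated libraries (exact permutation adjusted p = 0.0357). That value was adjusted over 3 ratios and the main comparison over 9, so the 2 adjusted p-values are not on equal terms.

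Leaving out each library in turn gave 458 to 970 genes called at 1 g/L (458 without control 3, 475 without 1 g/L 52, 481 without 1 g/L 54), 3044 to 3408 at 2 g/L and 3137 to 3397 at 3.5 g/L. Receptors called ranged from 0 to 2 at 1 g/L (0 without control 4, 5 or 7 or 1 g/L 51 or 52, and 2 without control 8, when Nr1i3 was called at −0.37, adjusted p = 0.0447), from 4 to 5 at 2 g/L, from 6 to 6 at 3.5 g/L and for the slope, and from 2 to 4 for both steps between doses. Ranges that crossed 0 were those of Nr1h2 (−0.0002 to 0.0441) and Nr1i2 (−0.0448 to 0.0535) at 1 g/L. Nr1h3 at 1 g/L ran from 0.16 to 0.21. The Nr1h3 to Nr1h2 ratio at 3.5 g/L ran from −0.0078 to 0.0525, Nr1i3 to Nr1i2 from −0.37 to −0.23 at 1 g/L (called without 1 g/L 52, exact permutation adjusted p = 0.0195) and from −0.0355 to 0.1032 at 3.5 g/L, and Esrra to Esr1 from 0.19 to 0.29 at 2 g/L. Of the 7 receptors whose reads were recovered, Nr1h2, Esrra and Esr1 rest on the fewest, 172 to 795 reads per library. The part of depth in their spread was not tested.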
